A study of Mus musculus with 42 samples.

Results

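The genes described here are 10 mouse genes for apolipoproteins and secreted carrier proteins: Apoa1, Apoa2, Apoa4, Apob, Apoe, Apom, Ttr, Afp, Rbp4 and Trf. They were chosen by name, and their probes were found through the RefSeq accession that the scanner files give for each probe. All 10 of the 10 genes were on the array, out of 20972 genes with a RefSeq symbol, by 13 probes, and the brightest probe of each gene over all 42 arrays is used unless another is named. Agilent arrays of the one-colour kind, 3 in each of 14 groups, measured RNA from mouse embryonic stem cells (ESC) that were differentiated towards anterior definitive endoderm (ADE). The line carries a GFP reporter in Gsc and a red reporter in Hhex, so that G- and G+ name the sorted fractions without and with GFP, Glow and Ghigh its low and high fractions, and H- and H+ the fractions without and with the Hhex reporter. The untreated groups were ESC, unsorted cells of d2, G- and G+ of d3 and of d4, G-, Glow and Ghigh of d5, and G+H- and G+H+ of d6. EPZ6438 inhibits EZH2, the catalytic subunit of Polycomb repressive complex 2. In the inhibitor series, Control received DMSO throughout. ADE_EPZ received DMSO before differentiation and 2.5 µM EPZ6438 during it. ES_EPZ received 2.5 µM EPZ6438 before differentiation and DMSO during it. The labels of that series name no sort. Each fraction was from 1 reporter line, and values are means over the cells of a fraction, in which fewer cells of a type and less RNA per cell cannot be told apart.

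Apolipoproteins are the protein part of lipoprotein particles, which carry lipids through body fluids. Apob is the large structural protein of the particles that liver, intestine and yolk sac endoderm secrete, and Apoa1, Apoa2, Apoa4 and Apom are found mainly on high density lipoproteins. Rbp4 carries retinol in plasma and travels bound to Ttr, which also carries thyroxine. Afp is the main plasma protein of the fetus and Trf, transferrin, delivers iron. Visceral endoderm of the early embryo and later the liver are known sources of most of these proteins.

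The 4 promoters shown belong to genes whose level is followed below. Each is the 250 bases before an annotated start site, from RefSeq on GRCm38.p6, written in the direction of transcription. Capitals mark matches on either strand to motifs of 4 kinds. The letters CAAAGNCCA stand for the HNF4 motif, TGTTTNC for that of FOXA factors, AGATAA for that of GATA factors and the letters TATAAA for the TATA box. Matches to different motifs did not overlap in these windows.
Apoa1, chr9:46228380-46228629, plus strand: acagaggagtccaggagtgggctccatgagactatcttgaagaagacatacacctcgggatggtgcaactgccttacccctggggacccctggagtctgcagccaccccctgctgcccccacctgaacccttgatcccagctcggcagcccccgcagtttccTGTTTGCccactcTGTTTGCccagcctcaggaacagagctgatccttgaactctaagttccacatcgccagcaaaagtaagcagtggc
Apob, chr12:7977427-7977676, plus strand: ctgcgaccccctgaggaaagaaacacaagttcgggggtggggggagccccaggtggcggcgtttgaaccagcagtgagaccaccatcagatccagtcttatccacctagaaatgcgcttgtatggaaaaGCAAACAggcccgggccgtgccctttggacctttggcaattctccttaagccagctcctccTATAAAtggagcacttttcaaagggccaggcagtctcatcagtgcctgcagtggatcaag
Afp, chr5:90490464-90490713, plus strand: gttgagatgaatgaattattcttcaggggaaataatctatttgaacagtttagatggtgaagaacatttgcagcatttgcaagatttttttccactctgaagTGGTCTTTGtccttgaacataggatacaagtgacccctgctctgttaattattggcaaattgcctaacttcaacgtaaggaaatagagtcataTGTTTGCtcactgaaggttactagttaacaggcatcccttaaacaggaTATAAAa
Rbp4, chr19:38125322-38125571, minus strand, the outer of its 2 annotated starts: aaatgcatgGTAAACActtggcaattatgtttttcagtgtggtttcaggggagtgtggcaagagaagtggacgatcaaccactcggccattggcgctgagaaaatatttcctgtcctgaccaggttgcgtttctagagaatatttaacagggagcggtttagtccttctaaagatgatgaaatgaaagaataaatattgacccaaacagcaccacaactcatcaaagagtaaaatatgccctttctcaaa
The Afp window held a match to each motif other than GATA. The Apoa1 window held 2 FOXA matches, and those of Apob and Rbp4 held 1 each. The window of the other Rbp4 start, not shown, held no FOXA match and a TATA match that began 28 bases before that start. Of the 8 members with an entry in the promoter table, 6 had a FOXA match before some annotated start, 5 a TATA match, 1 an HNF4 match and 0 a GATA match. These genes have 12 windows between them, of which 6 held the FOXA letters, 5 TATA, 1 HNF4 and 0 GATA. Over all 32851 windows of this length, 17.8% held the FOXA letters, 12.4% TATA, 9.99% GATA and 1.7% HNF4. A match is a description of letters and not a bound site.

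Values are the deposited log2 intensities, and a gene was called where the limma adjusted p was at most 0.01 and the log2 difference at least 1.5 in size. A probe that the scanner software did not mark as well above background has only an upper bound, and a fold against such a group is then given as a lower bound, computed against the dimmest probe signals above background. Between 24459 and 40398 probes were well above background on an array, and 0 probe values were saturated. The endoderm markers Gsc, Hhex, Sox17, Foxa2, Cer1 and Cxcr4 were all called higher in both d6 fractions than in ESC. As the sort used the Gsc and Hhex reporters, those genes are no separate check of the labels. Hhex was not called between G+H+ and G+H-, where 0 genes were. The ESC markers Pou5f1, Nanog, Zfp42 and Esrrb were all called lower in both d6 fractions than in ESC. Markers of the tissues that also make these proteins were measured beside them. The mean log2 level of 9 visceral endoderm markers lay between 7.30 and 7.86 on the ESC arrays and between 8.84 and 9.25 on the d6 arrays, with Hnf4a, Dab2 and Ihh called higher in both d6 fractions and Lrp2 lower. The 4 parietal endoderm markers lay between 8.07 and 9.07 in ESC and between 9.76 and 10.70 at d6, with Pth1r called higher in both d6 fractions (4.11 in G+H+ and 3.73 in G+H-) and Plat and Sparc in G+H+. The mean log2 level of 5 hepatocyte markers was lower on every d6 array (4.97 to 5.29) than in ESC (5.73 to 5.98). Only 2 of them were above background on all 3 ESC arrays and 1 on all 3 arrays of each d6 fraction. That mean therefore lay near background. Of these markers 0 were called higher in either d6 fraction, and Alb was above background on 0 of 6 d6 arrays. The 4 primitive streak markers lay between 5.84 and 6.10 in ESC and between 7.30 and 8.92 at d6, with Mixl1 and Eomes called higher in both fractions. The 4 trophoblast markers overlapped between ESC (7.68 to 8.19) and G+H- (7.56 to 8.16) and were lower on every G+H+ array (6.94 to 7.45). Of these, Elf5 was called higher in both fractions and Cdx2 lower in G+H+. Of 4 blood and vessel markers, lower on every d6 array (6.53 to 6.82) than in ESC (7.08 to 7.23), 0 were called. Their part in the results was not tested.

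**Figure D1:**
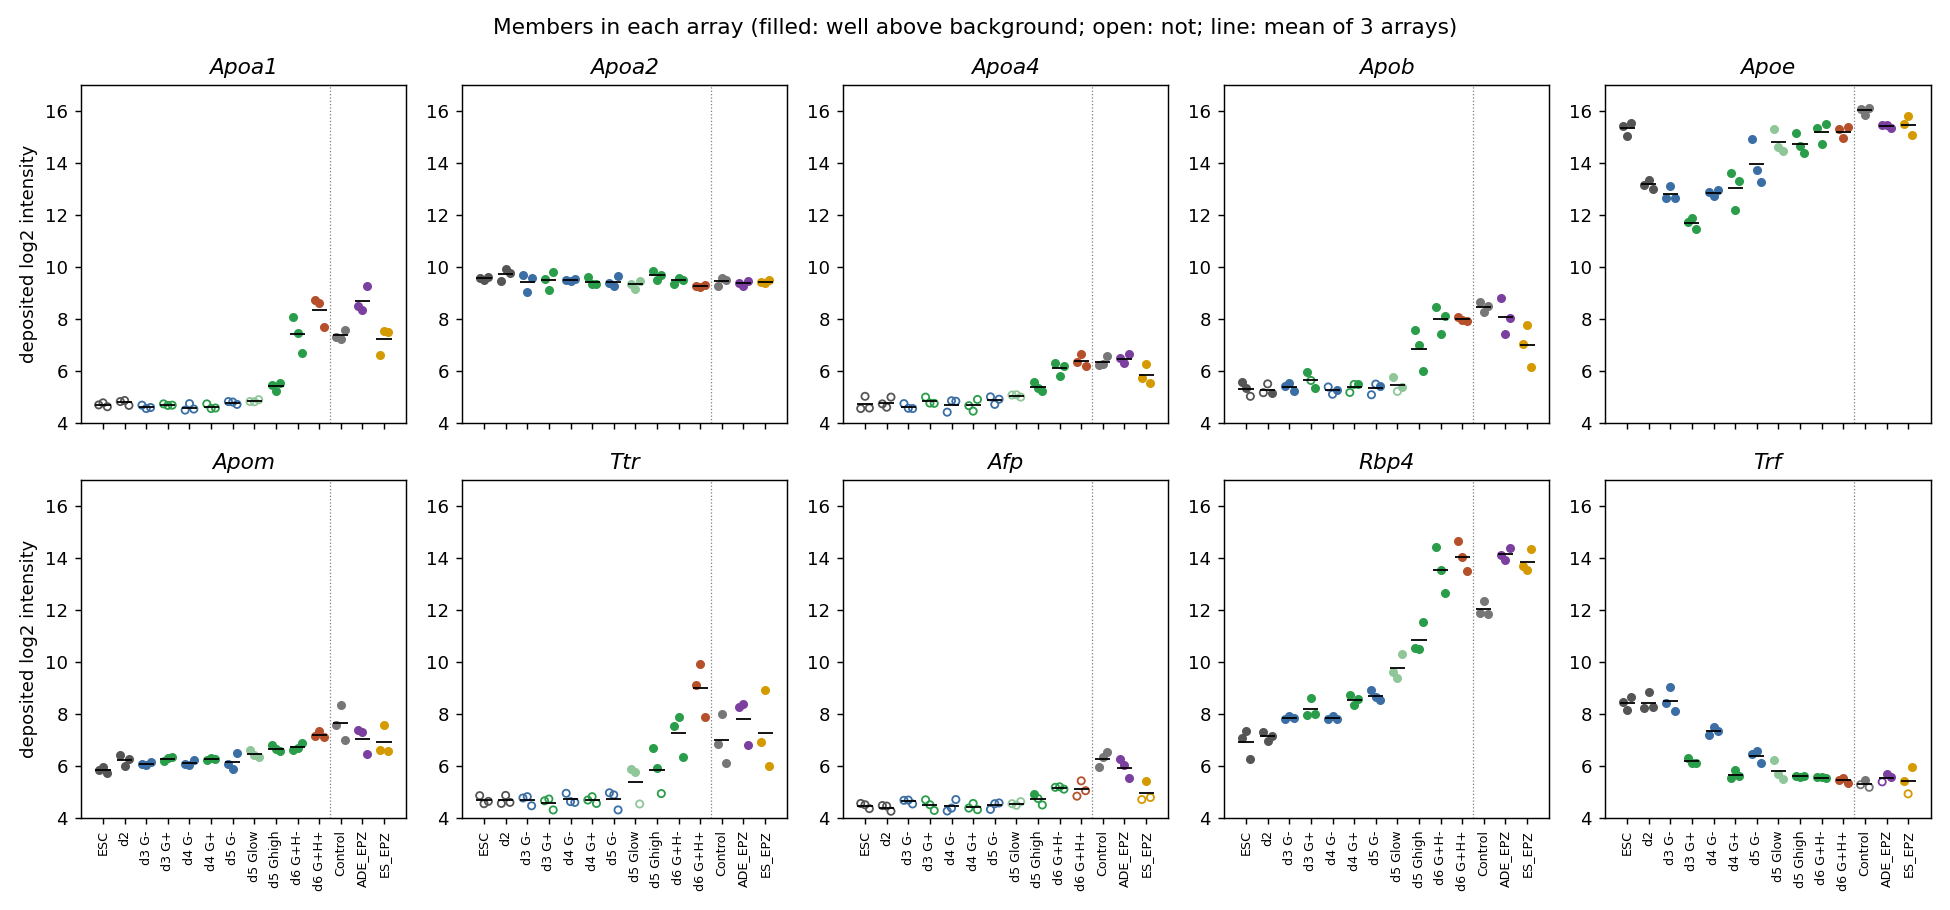
Deposited log2 intensity (y axis) of each of the 10 genes in every array of the 14 groups (x axis), with 1 point per array, filled where the probe was well above background, and a line at the mean of 3 arrays. The dotted line separates the untreated from the inhibitor series. Rbp4 climbs from a mean of 6.90 in ESC to 14.05 in d6 G+H+, Trf goes down from 8.43 to 5.44, and Apoe dips to 11.69 in d3 G+.

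Rbp4 had the widest range of the 10 genes. Its ESC arrays read 7.08, 7.35 and 6.27, the d5 Ghigh arrays 10.52, 10.48 and 11.53, the d6 G+H- arrays 14.40, 13.52 and 12.65 and the d6 G+H+ arrays 14.63, 14.03 and 13.49. The d5 Ghigh arrays lay above all ESC arrays and below all d6 arrays, while the d6 fractions overlapped. Against ESC the log2 difference was 1.64 (SE 0.33) in d4 G+, 1.79 in d5 G-, 2.86 in d5 Glow and 3.94 in d5 Ghigh. At d6 it was 6.62 for G+H- cells and 7.15 (SE 0.33, limma adjusted p = 7.44e-18) for G+H+ cells, a 142-fold difference. The gene was not called in d2, d3 or d4 G-. Its mean order over the untreated groups ran from ESC (6.90 ± 0.56, SD, n = 3) and d2 (7.15 ± 0.17) to d6 G+H+ (14.05 ± 0.57), and ESC and d2, d3 G- and d4 G- (7.84 each) and the d6 fractions were neighbours that lay within their spread.

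Ttr, the partner of Rbp4 in plasma, was not well above background on any array of ESC, d2, d3, d4 or d5 G-. The d5 Ghigh arrays read 6.70, 5.90 and 4.93, the last not above background, the d6 G+H- arrays 7.54, 7.88 and 6.34 and the d6 G+H+ arrays 9.11, 9.93 and 7.88. Every d6 array lay above every ESC array. The difference from ESC was 4.30 (SE 0.55, adjusted p = 1.23e-07) in d6 G+H+, at least 16.5-fold, and for G+H- it was 2.58 (adjusted p = 0.000415), at least 5.03-fold. Ttr had the largest spread between the arrays of a group among the 10 genes, with an SD of 1.03 in d6 G+H+ and of 1.5 in ES_EPZ.

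Apoa1, the main protein of high density lipoprotein, was not well above background on any array of ESC, d2, d3, d4, d5 G- or d5 Glow. The d5 Ghigh arrays read 5.44, 5.22 and 5.54, the d6 G+H- arrays 8.08, 7.47 and 6.69 and the d6 G+H+ arrays 8.73, 8.60 and 7.68. All d6 arrays lay above all d5 Ghigh arrays, while the d6 fractions overlapped. Apoa1 was at least 11-fold higher in d6 G+H+ than in ESC (log2 difference 3.64, SE 0.25, adjusted p = 1.83e-13) and at least 5.80-fold higher in d6 G+H-. Apoa4, an intestinal and hepatic apolipoprotein that lies beside Apoa1 in the genome, followed at a smaller size. Its d5 Ghigh arrays read 5.57, 5.33 and 5.23 and the d6 G+H+ arrays 6.34, 6.63 and 6.19, and its difference from ESC was 1.67 (SE 0.18) in d6 G+H+, at least 2.76-fold. For G+H- cells it was 1.39, under the fold threshold.

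Apoa2, the other abundant protein of these particles, stayed level by its brighter probe. Its group means lay between 9.27 (d6 G+H+) and 9.71 (d2), a range of 0.44, and it was called in no comparison. The second Apoa2 probe was near background, above it on 1 of 3 ESC arrays. Its mean over all arrays was 4.63, against 9.47 for the brighter probe. Which probe gives the level of Apoa2 was not tested. Apom, which carries sphingosine-1-phosphate, was well above background on all arrays and moved from 5.83 ± 0.11 (SD, n = 3) in ESC to 7.20 ± 0.10 in d6 G+H+. Its difference of 1.37 (SE 0.24, adjusted p = 2.52e-05) was under the fold threshold.

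Apob arrays read 5.59, 5.35 and 5.02 in ESC, 7.56, 6.98 and 5.99 for d5 Ghigh, 8.45, 7.40 and 8.12 for d6 G+H- and 8.07, 7.96 and 7.90 in the G+H+ fraction. Every d5 Ghigh and d6 array lay above every ESC array. The difference from ESC was 1.52 (adjusted p = 0.000672) at d5 Ghigh. At d6 it was 2.67 for G+H- cells and 2.66 (SE 0.33, adjusted p = 6.97e-08) for G+H+ cells. The second Apob probe gave 1.60, 2.78 and 2.72 in the same order.

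Apoe, a ligand of lipoprotein receptors that many cell types make, had a level that fell and came back. Its arrays read 15.43, 15.03 and 15.53 in ESC, 13.15, 13.36 and 13.00 in d2, 11.72, 11.89 and 11.46 in d3 G+, 15.15, 14.66 and 14.39 for d5 Ghigh cells and 15.29, 14.95 and 15.38 for d6 G+H+ cells. All d3 G+ arrays lay below all d2 arrays, and the ESC and d6 arrays overlapped. Against ESC it was called lower in d2 (-2.16), d3 G- (-2.52), d3 G+ (-3.64, SE 0.31, adjusted p = 7.07e-11), d4 G- (-2.47) and d4 G+ (-2.28). It was called higher in d5 Ghigh than in d4 G+ by 1.69 (adjusted p = 0.000902), a step at which 0.715% of all genes were called higher, and the difference of d6 G+H+ from ESC was -0.12 (SE 0.31).

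Trf ended lower at d6 than in ESC, where Rbp4 ended higher, but its fall came earlier, at d3 G+. Its arrays read 8.47, 8.15 and 8.66 in ESC, 8.22, 8.82 and 8.25 in d2, 6.30, 6.11 and 6.10 in d3 G+, 5.53, 5.85 and 5.60 in d4 G+ and 5.44, 5.54 and 5.35 in d6 G+H+. ESC and d2 overlapped and every G+ array of d3 and d4 lay below both. The difference from ESC was -2.26 (SE 0.21) in d3 G+, -2.05 for d5 G- cells and -2.98 (adjusted p = 3.20e-13) in d6 G+H+. The second Trf probe gave -1.89, -1.72 and -2.48 for these. Afp was well above background on 1 untreated array, of d5 Ghigh (4.91), and on 0 of 6 arrays of d6, where its means were 5.15 and 5.10.

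**Figure D2:**
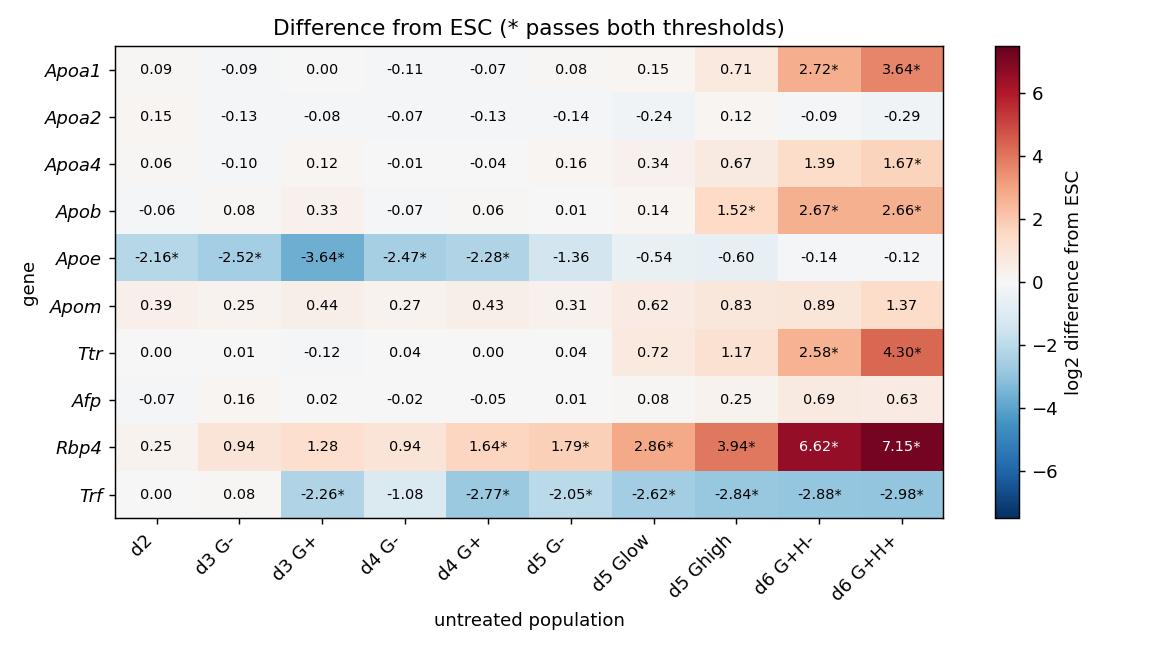
Log2 difference from ESC (colour and printed value) of the 10 genes (rows) in the 10 untreated populations (columns), with an asterisk where both thresholds were passed. Asterisks of Apoe are in d2 to d4, those of Trf begin at d3 G+ and those of Rbp4 at d4 G+, and Apoa1 and Ttr carry them at d6.

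The comparison of the final populations with ESC asks which genes differ at the end of differentiation. Of the 10 genes, 5 were called higher in d6 G+H+ (Apoa1, Apoa4, Apob, Ttr and Rbp4), 1 lower (Trf) and 4 were not called, where 5.79% of all genes, each by its brightest probe, were called higher and 5.33% lower. For d6 G+H- the counts were 4 higher (Apoa1, Apob, Ttr and Rbp4) and 1 lower (Trf), where 5.1% of all genes were called higher and 5.1% lower. The median log2 difference of the 10 genes was 1.52 for G+H+ and 1.14 for G+H-, and that of all genes was 0 in both. In the earlier populations against ESC, 1 member was called in d2, where 1.73% of all genes were called in either direction, 1 in d3 G- (2.42%), 2 in d3 G+ (6.59%), 1 in d4 G- (3.21%) and 3 in d4 G+ (7.41%). At d5 the counts were 2 for G- (4.32%), 2 for Glow (7.74%) and 3 for Ghigh (8.19%). In the untreated series, replicates 1 and 2 were on slides 1 to 3, the first slide set, and replicate 3 on slides 4 and 5, the second. Slide set and replicate number cannot be told apart. In the first and the second slide set, the difference of d6 G+H+ from ESC was 7.12 and 7.22 for Rbp4, 3.93 and 3.06 for Apoa1, 4.82 and 3.25 for Ttr, 2.55 and 2.89 for Apob, 1.70 and 1.62 for Apoa4 and -2.82 and -3.31 for Trf. The Apoa4 call was lost with no background correction (1.17) and with a normexp offset of 50 (0.92).

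The sorted pairs of 1 day ask what separates Gsc reporter fractions. At d3 and at d4, Trf alone of the 10 genes was called, lower in G+ by 2.34 on the log2 scale at d3 (log2 difference -2.34, SE 0.21, adjusted p = 4.12e-09) and by 1.69 at d4 (-1.69, SE 0.21, adjusted p = 2.40e-06), where 1.1% and 1.47% of all genes were called lower. In both pairs every G+ array was lower than every G- array. The second Trf probe gave -1.91 at d3, called, and -1.24 (adjusted p = 0.0101) at d4, not called. In the first and the second slide set the d4 difference of the main probe was -1.66 and -1.74. The d4 call was lost with no background correction (-1.30) and with an offset of 50 (-1.16). The interaction of day and fraction, which tests whether that difference changed between d3 and d4, was called for 0 of the 10 genes and for 0% of all genes. It had an unadjusted limma p under 0.05 for 2 of the 10 (Apoe, Trf), a looser cut at which all genes were not counted. Apoe was lower in d3 G+ by 1.12 (-1.12, SE 0.31, adjusted p = 0.0308), which was not called.

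At d5, Rbp4 and Apob were called higher in Ghigh than in G-, where 0.977% of all genes were called higher. Rbp4 differed by 2.15 (SE 0.33, adjusted p = 3.61e-05) and by 1.73 and 2.99 within the first and the second slide set. Apob differed by 1.52 (SE 0.33, adjusted p = 0.00318), and by 1.98 and 0.59 within the slide sets. The Apob call was lost without any 1 of d5 G- replicates 1, 2 and 3 and d5 Ghigh replicates 1 and 2, with values of 1.16 to 1.60, and the second Apob probe gave 1.35 (adjusted p = 0.00485), under the fold threshold. In a fit to the arrays of Ghigh and G- alone neither gene was called. Between Ghigh and Glow 0 of the 10 genes were called, where 0.267% of all genes were. An unadjusted limma p under 0.05 was found for 4 of the 10 (Apoa1, Apoa2, Apob, Rbp4), a looser cut at which all genes were not counted. Apob came nearest with 1.39 (SE 0.33, adjusted p = 0.0446), higher in Ghigh in 9 of 9 pairs of arrays, and was called there without d5 Ghigh replicate 3.

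From d5 Ghigh to d6 G+H-, Apoa1 and Rbp4 were called higher, where 1.39% of all genes were called higher. Apoa1 differed by 2.02 (SE 0.25, adjusted p = 2.45e-06) and Rbp4 by 2.68 (SE 0.33, adjusted p = 1.61e-06), each in 9 of 9 pairs of arrays. Within the first and the second slide set Apoa1 differed by 2.45 and 1.15 and Rbp4 by 3.46 and 1.13. Neither was called in a fit to these 6 arrays alone.

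The d6 fractions differ in the Hhex reporter. Of the 10 genes 0 were called between G+H+ and G+H-, as were 0% of all genes. An unadjusted p under 0.05 in limma was found for 2 of the 10 (Apoa1, Ttr), a looser cut at which all genes were not counted. Ttr had the largest difference among the 10, 1.72 (SE 0.55, adjusted p = 0.640), higher in G+H+ in 8 of 9 pairs. Within the first and the second slide set its difference was 1.81 and 1.54. Apoa1 differed by 0.92 (SE 0.25, adjusted p = 0.438), also in 8 of 9 pairs. Arrays of the same replicate number deviated together here (r between 0.348 and 0.646). Within the 3 same-numbered pairs Ttr was higher in G+H+ by 1.57, 2.05 and 1.54 and Apoa1 by 0.64, 1.13 and 1.00, in 3 of 3 pairs each. With the replicate number as a block the limma adjusted p was 0.144 for Ttr (SE 0.40) and 0.312 for Apoa1 (SE 0.26), and neither was called.

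**Figure D3:**
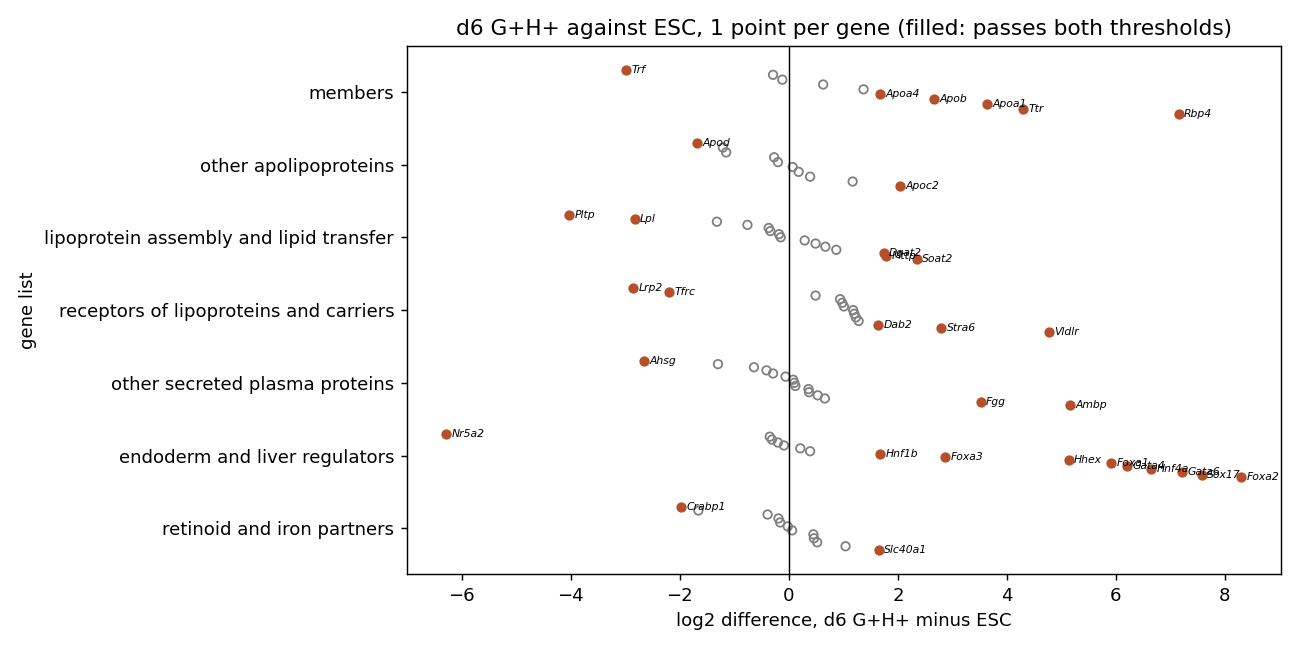
Log2 difference of d6 G+H+ from ESC (x axis) for genes of 7 lists (y axis), 1 point per gene, filled and named where both thresholds were passed. Points of genes not above background in 1 of the groups are at their fitted values, which understate the difference. Regulators reach 8.29 (Foxa2), Rbp4 is at 7.15 among the 10 genes, and Pltp is at -4.03 among the assembly genes.

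Genes that act with these proteins were taken from lists and are given for d6 G+H+ against ESC. Of 10 other apolipoproteins, Apoc2, the activator of lipoprotein lipase, was called higher (2.04) and Apod lower (-1.68), and the list's median was -0.06. Of 15 genes of lipoprotein assembly and lipid transfer, 3 were higher and 2 lower. The higher ones were Mttp (1.79, SE 0.25, adjusted p = 6.52e-07), which loads lipid on Apob, Soat2 (2.35), which makes cholesteryl esters, and Dgat2 (1.74), which makes triglycerides. The lower ones were Pltp (-4.03) and Lpl (-2.83), which act on particles outside the cell. The list's median was -0.15.

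Among receptors and their partners, Vldlr (4.77), Stra6 and Dab2 (1.64) were called higher. Stra6, the receptor of Rbp4, was not above background on any ESC array and was at least 6.18-fold higher. Lrp2, an endocytic receptor that binds several of these carriers (-2.85), and Tfrc, the transferrin receptor (-2.20), were lower. Cubn differed by 1.20 (adjusted p = 0.000417), under the fold threshold. Among 15 other secreted plasma proteins, Ambp (5.16) and Fgg (3.52) were higher, Ahsg lower, at least 5.73-fold with 0 of 3 d6 G+H+ arrays above background, and 12 were not called. Alb read 4.72 in d6 G+H+ and 4.78 in ESC and was above background in neither.

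Regulators of endoderm and liver genes had the highest median of these partner lists, 1.67 over 17 genes. Foxa2 was higher by 8.29, Gata6 by 7.21 and Gata4 by 6.21. Sox17 and Hnf4a, not above background on any ESC array, were at least 185-fold and at least 80.2-fold higher, and 9 of 17 were called higher in all. Nr5a2 was at least 77.5-fold lower, with 0 of 3 d6 G+H+ arrays above background. Of 12 retinoid and iron partners, Slc40a1, which exports iron, was higher (1.65) and Crabp1, a cellular retinoic acid binding protein, lower (-1.97). In d5 Ghigh against G-, where Rbp4 and Apob were called, Hnf4a was higher by 3.92 (SE 0.39, adjusted p = 2.80e-08), Gata6 by 3.37, and Mttp by 0.70 (adjusted p = 0.117), not called.

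The inhibitor series asks how EPZ6438 given before or during differentiation changes the d6 culture. Rbp4 arrays read 11.88, 12.33 and 11.83 in Control, 14.10, 13.92 and 14.39 in ADE_EPZ and 13.68, 13.53 and 14.34 in ES_EPZ. Every array of both EPZ6438 regimens lay above every Control array. Rbp4 was 2.12 higher in ADE_EPZ (SE 0.33, adjusted p = 3.95e-05), where 1.97% of all genes were called higher, and 1.84 higher in ES_EPZ (SE 0.33, adjusted p = 0.00231), where 0.367% were. The regimens share the Control arrays. Each of 3 slides held 1 array of every regimen, and on slides 6, 7 and 8 the Rbp4 difference was 2.06, 2.26 and 2.03 for ADE_EPZ and 2.01, 1.85 and 1.65 for ES_EPZ. The ES_EPZ call was lost without Control replicate 1 (1.77), Control replicate 3 (1.75) or ES_EPZ replicate 3 (1.59), with scaling to the 75th percentile (1.82), and in fits to the inhibitor series or the compared arrays alone (1.84 each).

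Apoa1 read 7.31, 7.22 and 7.57 in Control, 8.49, 8.34 and 9.27 in ADE_EPZ and 6.62, 7.53 and 7.48 in ES_EPZ. All ADE_EPZ arrays lay above all arrays of both other regimens, which overlapped. The difference of ADE_EPZ was 1.34 (SE 0.25, adjusted p = 0.000411) from Control and 1.49 (adjusted p = 0.00153) from ES_EPZ, both just under the fold threshold. Without ADE_EPZ replicate 2 the former was called.

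Afp read 5.95, 6.32 and 6.51 in Control, 6.25, 6.01 and 5.51 in ADE_EPZ and 4.70, 5.41 and 4.78 in ES_EPZ, where 1 of 3 arrays was above background. The ES_EPZ arrays lay below all others, by 1.29 against Control (log2 difference -1.29, SE 0.18, adjusted p = 0.000117), under the fold threshold. Apob read 8.65, 8.25 and 8.48 in Control and 7.03, 7.78 and 6.14 in ES_EPZ, with a difference of -1.48 (SE 0.33, adjusted p = 0.0147) that was not called, while its second probe gave -1.54 (adjusted p = 0.00574) and was called. Without ES_EPZ replicate 2, Apob and Afp were both called lower. Between ADE_EPZ and ES_EPZ 0 of the 10 genes were called, where 0.129% of all genes were. An unadjusted limma p under 0.05 was found for 4 of the 10 (Afp, Apoa1, Apoa4, Apob), a looser cut at which all genes were not counted.

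Ttr differed by 0.81 (SE 0.55, adjusted p = 0.476) in ADE_EPZ, and by -1.22, 2.15 and 1.51 on slides 6, 7 and 8. Its Control arrays read 6.85, 8.01 and 6.12, and the regimens overlapped. Apoe means were 16.01 in Control, 15.41 in ADE_EPZ and 15.46 in ES_EPZ, and Apom means 7.63, 7.04 and 6.91. Neither was called. Trf lay between 4.92 and 5.94 on these arrays and 5 of 9 were above background. Untreated and inhibitor series were on separate slides, so that series and slide cannot be told apart between them.

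**Figure D4:**
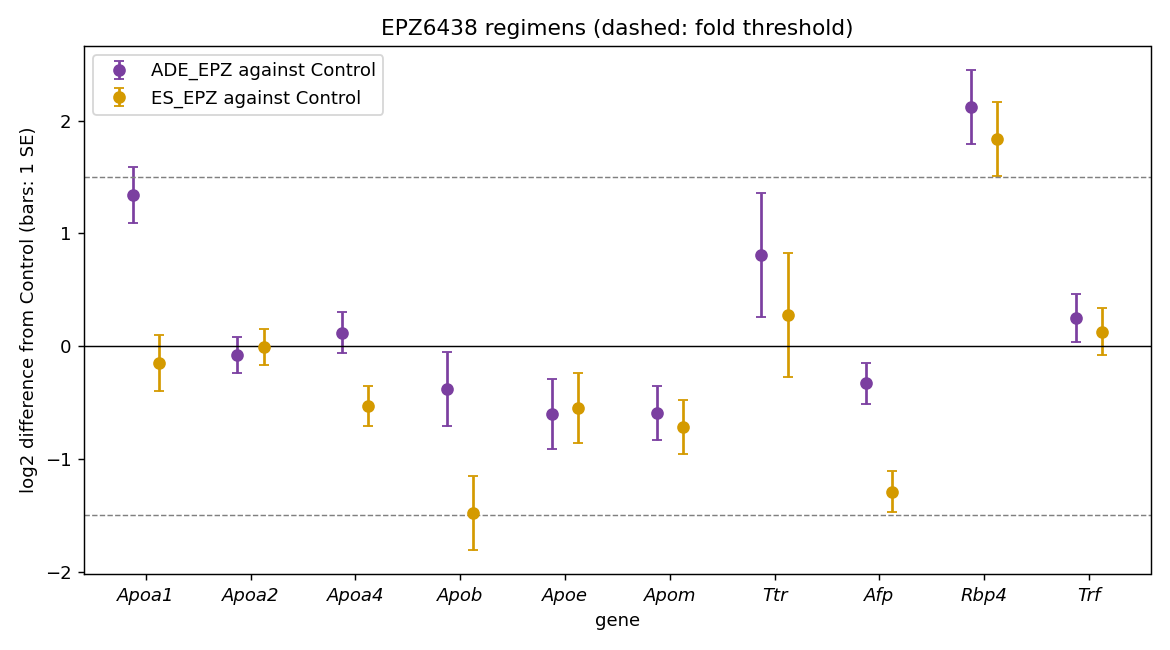
Log2 difference from Control (y axis, bars 1 SE of the fit) of the 10 genes (x axis) for ADE_EPZ and ES_EPZ, 3 arrays each, with dashed lines at the fold threshold. Rbp4 lies above the upper line in both regimens (2.12 and 1.84), and Apob (-1.48) and Afp (-1.29) are the lowest in ES_EPZ.

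In ADE_EPZ against Control the partners moved as follows. Clu (2.99), a secreted apolipoprotein, was the 1 gene called of 10 other apolipoproteins. Abca1 (2.45, adjusted p = 0.000113), which loads lipid on Apoa1, and Abcg1 (1.69) were 2 of 15 assembly and transfer genes. Fgg (1.79) and Ambp (1.57) were 2 of 15 other plasma proteins, Hhex (2.23) was 1 of 17 regulators, and 0 of 14 receptors and 0 of 12 retinoid and iron partners were called. The culture's own endoderm markers and those of other cells were compared as well. The mean log2 level of 6 anterior and definitive endoderm markers lay between 11.28 and 11.83 in Control and between 12.45 and 12.94 in ADE_EPZ, with Hhex the 1 marker called. The 4 ESC markers lay between 7.04 and 7.5 in Control and between 8.11 and 8.58 in ADE_EPZ, with Zfp42 called higher (1.51). The 4 primitive streak markers were lower, between 9.64 and 9.79 in Control and between 7.99 and 8.39 in ADE_EPZ, with Mixl1 called lower (-3.34). Rhox5 and Cited1 of 9 visceral endoderm markers and Thbd and Plat of 4 parietal endoderm markers were called higher, and the mean log2 level of the visceral list lay between 8.66 and 8.97 in Control, 9.25 and 9.83 in ADE_EPZ and 8.72 and 9.24 in ES_EPZ. The parietal list lay between 9.94 and 10.42 in Control and between 11.13 and 11.55 in ADE_EPZ. Of the hepatocyte, trophoblast and blood and vessel markers 0 were called. The hepatocyte and trophoblast lists overlapped between Control and ADE_EPZ. The blood and vessel list lay between 6.62 and 6.76 in Control and between 6.80 and 6.87 in ADE_EPZ. The part of all these markers in the Rbp4 and Apoa1 values was not tested. Hnf4a differed by 0.46 (adjusted p = 0.631) and Foxa2 by 0.75 (adjusted p = 0.616). In ES_EPZ 0 genes of the 6 partner lists were called. The anterior and definitive endoderm markers were higher on every ES_EPZ array (12.09 to 12.66) than in Control, with 0 of 6 called and Hhex at 1.54 (adjusted p = 0.0356). The primitive streak markers were lower on every ES_EPZ array (8.28 to 9.21) than in Control, with Mixl1 called lower (-1.72, limma adjusted p = 0.00565). The hepatocyte markers were lower as well (5.12 to 5.21 against 5.26 to 5.50), with 0 called. Only 1 hepatocyte marker was above background on all 3 arrays of ES_EPZ and of Control, so that mean lay near background. The other marker lists overlapped between ES_EPZ and Control, with 0 called. Their part in the Rbp4 value of ES_EPZ was not tested.

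The genes with the pattern most like each member were found by Pearson's r of the 14 group means, among 5467 genes that spanned at least 1.5 on the log2 scale, and r is a description over groups that share a time course. For Rbp4 they were Txndc12 (r = 0.996) and Srgap1 (0.993), for Apoa1 Kif12 and Cltrn (0.993 each), for Ttr Dpyd (0.987) and Akr1c12 (0.980) and for Trf Nexmif (0.988) and Zp3 (0.987). Apoa4 was most like Ambp (0.978) and the transcription factor gene Hnf4a (0.975), and Apom was most like Mttp (0.967) and Sapcd1 (0.946). Afp was most like Ihh (0.944) and Mttp (0.924), but it lay near background in the untreated groups, which limits its r. Apob was most like Crygc (0.972) and Pou2af1 (0.961) and Apoe like Ap1g2 (0.965) and Polr3gl (0.944). The nearest genes to Apoa2, Tpst1 (0.770) and Akap17b (0.749), had the lowest r of these.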

How the data were processed

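RNA was labelled in 1 colour and hybridised to Agilent mouse arrays. Groups came from the deposited labels, and the series design speaks of independent experiments. The authors deposited log2 intensities made by normexp background correction (offset 10) and quantile normalisation, with the scanner's intensity for every spot (Feature Extraction 11.0.1.1 and 12.0.1.1 per the file headers). The deposited log2 table was used, with 59305 spots averaged to 55681 probes. Its correlation with values recomputed from the scanner intensity was at least 0.999979 on every array. Symbols came from RefSeq (GRCm38.p6, names only). A linear model with a mean per group over all 42 arrays was fitted with limma 3.58.1 in R 4.3.3 and p-values were adjusted over all probes by the Benjamini-Hochberg method. The fit was tested on simulated data. The number of arrays limits the precision.

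The 10 genes, their partner lists and the tests were chosen with earlier results of these data known. Named partners are the called genes of a list, up to 4 in each direction by size, plus Hnf4a, Foxa2, Gata4, Gata6, Alb, Mttp, Lrp2 and Cubn. Replicate numbers deviated together (r over 0.1 in every pair) in 7 of 11 comparisons. The alternatives were other background corrections, scalings, probe filters, sets of arrays, blocks and probes per gene, and leaving out each array. The changes of a few list genes are not reported here, although the genes stay in the counts and tests.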

Additional observations from a re-analysis of the deposited data

Results flagged for a closer look

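The direct test of ADE_EPZ against ES_EPZ gave a limma adjusted p of at most 0.05, without a fold threshold, for Apoa1 and Afp. Apoa1 was higher in ADE_EPZ by 1.49 on the log2 scale (adjusted p = 0.00153), in 9 of 9 pairs of arrays. Afp was higher by 0.96 (adjusted p = 0.00494), in 9 of 9 pairs, with 1 of 3 ES_EPZ arrays above background. Both were under the fold threshold of 1.5. By both thresholds 0 of the 10 genes were called, where 0.129% of all genes were. At the looser cut all genes were not counted.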

How the results depend on the processing

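No called value changed direction under any alternative. Scaling to the 75th percentile, only the arrays of 1 series and only the compared arrays each left 0 members called higher in ES_EPZ against Control, where the main count was 1, and leaving out arrays gave 0 to 1. For d5 Ghigh against d5 G- the main count of 2 higher became 1 (Rbp4) with the mean of all probes, recomputed values, no background correction or an offset of 50, and 0 with the compared arrays only, and leaving out arrays gave 1 to 2. For d6 G+H- against d5 Ghigh 2 became 0 with the compared arrays only and 1 at the offset of 50. The d4 call of Trf became 0 with the mean of all probes, no background correction or the offset of 50. In ES_EPZ against Control 0 lower became 1 (Apob) with the mean of all probes, and 0 to 2 when arrays were left out. Leaving out arrays gave 1 to 2 higher for ADE_EPZ against Control, 0 to 1 for ADE_EPZ against ES_EPZ and 0 to 1 for d5 Ghigh against d5 Glow. The cause was not tested, other than fewer arrays where arrays were left out. With the replicate number as a block the d6 G+H+ counts stayed at 5 higher and 1 lower, and the block changed no other call of the members. Signal near background limits Afp in the untreated groups and in ES_EPZ, and Apoa1, Apoa4, Ttr and Trf in part, where changes are understated.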
